A study of Mus musculus with 3 samples.

Results

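The 36 genes described here build or carry out Notch signalling, or belong to the Hes and Hey family, which holds several of its targets. They were followed in a list of chromatin sites bound by Sp9, a zinc finger transcription factor of olfactory bulb interneurons. A peak belonged to the set when the gene name deposited beside it equalled one of the 36 symbols. This gave 72 of the 19979 peaks, linked to 34 of the 36 genes. The Sp9 group held 2 immunoprecipitation libraries made with a homemade antibody, and the input group held 1 library without antibody. All 3 came from olfactory bulbs of CD1 mice at postnatal days 0 to 2, with no genotype or treatment named in the labels. Crosslinking lasted 10 min at 1% formaldehyde, and the chromatin was sheared to between 200 and 1000 bp. The labels name whole bulbs, so the peaks cannot be assigned to a cell type, and the sources used here do not say whether the immunoprecipitations came from separate animals.

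Notch receptors sit on the cell surface and are activated by Delta and Jagged ligands on a neighbouring cell. Activation lets an Adam protease and then gamma-secretase cut the receptor, and the freed intracellular part enters the nucleus, where it joins the DNA-binding protein Rbpj and a Mastermind (Maml) co-activator. The best known targets are among the Hes and Hey genes, a family of basic helix-loop-helix (bHLH) proteins. Several of them are repressors that hold back proneural genes. In the developing and postnatal forebrain the pathway is known for keeping neural stem cells undifferentiated.

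The authors gave each peak 1 score, which has no unit here and ranks peaks within the list only. There is 1 value per peak and none per library, so no value below has a replicate error and no test was made. A gene is called linked to a peak when the authors put its name there; the list gives no distance, so a link places no peak at a promoter, exon or intron. The median score of the list was 210.06 and its upper quartile 354. Peaks at or above these values are called above-median and upper-quartile peaks. Peak positions are in the mouse build mm9, as deposited.

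Promoter sequences of the genes are shown first because Sp factors are known to bind GC-rich boxes and because some of these promoters carry letters that Rbpj recognises. They were taken from RefSeq in build GRCm38.p6, which is not the build of the peaks, so no peak was placed on them. The table held 36 promoter windows for 28 of the 36 genes, each with 250 bases before and 50 after the start of transcription; Hes1, Hes2, Hes3, Hey1, Heyl, Mfng, Dtx3 and Dtx4 had no entry. The 250 bases before the start are given for Notch2, the window with the most GC boxes, for Hes5, Hey2 and Lfng, which hold Rbpj-type letters, for Adam10, the gene with the highest score, and for Notch4, which had no linked peak. Capitals mark GGGCGG (a GC box), CACGTG (an E-box) and GTGGGAA, with the preceding C where it reads CGTGGGAA (the Rbpj-type motif), on either strand. The stretches are Notch2 at chr3:98013288-98013537, plus strand; Hes5 at chr4:154960673-154960922, plus strand; Hey2 at chr10:30842784-30843033, minus strand. The others are Lfng at chr5:140607091-140607340, plus strand, Adam10 at chr9:70678732-70678981, plus strand, and Notch4 at chr17:34564045-34564294, plus strand.
Notch2: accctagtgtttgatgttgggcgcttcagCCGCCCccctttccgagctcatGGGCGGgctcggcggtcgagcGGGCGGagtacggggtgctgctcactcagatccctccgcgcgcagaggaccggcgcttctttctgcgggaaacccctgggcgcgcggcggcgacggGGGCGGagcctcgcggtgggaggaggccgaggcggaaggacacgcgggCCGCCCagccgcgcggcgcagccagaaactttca
Hes5: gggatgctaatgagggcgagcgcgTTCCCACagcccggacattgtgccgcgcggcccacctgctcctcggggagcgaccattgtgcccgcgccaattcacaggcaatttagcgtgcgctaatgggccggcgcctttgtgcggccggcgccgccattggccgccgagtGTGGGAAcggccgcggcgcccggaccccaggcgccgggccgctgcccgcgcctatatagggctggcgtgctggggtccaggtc
Hey2: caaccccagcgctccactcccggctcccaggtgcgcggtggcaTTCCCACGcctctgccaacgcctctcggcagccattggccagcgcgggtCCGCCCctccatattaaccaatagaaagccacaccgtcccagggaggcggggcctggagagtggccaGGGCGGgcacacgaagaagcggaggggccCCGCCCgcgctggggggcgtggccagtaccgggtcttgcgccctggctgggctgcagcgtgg
Lfng: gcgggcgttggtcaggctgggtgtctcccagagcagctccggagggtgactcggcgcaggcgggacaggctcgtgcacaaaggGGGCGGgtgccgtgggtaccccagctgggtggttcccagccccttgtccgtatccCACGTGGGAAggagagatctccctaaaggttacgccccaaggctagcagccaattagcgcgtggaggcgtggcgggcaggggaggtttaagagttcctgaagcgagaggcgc
Adam10: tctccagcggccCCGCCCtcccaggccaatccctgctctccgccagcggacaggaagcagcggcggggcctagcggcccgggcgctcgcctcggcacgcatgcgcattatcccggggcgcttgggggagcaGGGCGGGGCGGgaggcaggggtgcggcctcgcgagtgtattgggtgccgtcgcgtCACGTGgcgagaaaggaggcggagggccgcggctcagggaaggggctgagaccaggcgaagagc
Notch4: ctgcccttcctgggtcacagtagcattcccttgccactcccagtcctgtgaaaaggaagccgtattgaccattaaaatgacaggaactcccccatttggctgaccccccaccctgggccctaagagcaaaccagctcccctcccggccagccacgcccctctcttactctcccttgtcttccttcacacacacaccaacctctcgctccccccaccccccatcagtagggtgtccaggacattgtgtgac

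GC boxes were present in most receptor promoters, as in most promoters of coding genes with a linked peak. GGGCGG occurred 5 times in the window of Notch1, 7 times in that of Notch2 (5 of them in the stretch shown), 4 times in that of Notch3 and at no place in that of Notch4. Of the 36 windows, 20 (55.6%) held it on either strand, against 35.7% of all 32851 promoters of the same length and 61.7% of the promoters of coding genes with a linked peak. The median GC content was 63.2% in these windows, against 52.7% in all and 61.7% in those of linked coding genes. By gene, GGGCGG was found for 19 of the 26 linked genes with an entry (73.1%), near the 68.0% of all linked coding genes, and for neither of the 2 genes without a linked peak, against 26.2% of all unlinked coding genes. The 36 windows held 62 matches in all, and the 12235 windows of linked coding genes held 17721. Rfng and Numbl followed Notch2 with 6 matches each. The other 7 linked genes, among them Hes5, Jag1, Dll1 and Maml3, had none in the window.

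The letters of the Rbpj motif were rarer. CGTGGGAA was found in 2 of the 36 windows (5.56%), those of Hey2 and Lfng. The share was 0.734% of all promoters and 0.981% of the promoters of coding genes with a linked peak. The window of Hey2 held it at 207 bases before the start and again across the start itself, so that the second match is not in the stretch shown. In Lfng it overlapped a CACGTG, and the match began 110 bases before the start. The shorter GTGGGAA, searched after the Hes5 sequence had been seen, occurred in 5 windows (13.9%). It occurred in 6.38% of all promoters and in 5.93% of those of linked coding genes. Hes5 had 2 copies on opposite strands, beginning 226 and 83 bases before the start, and Hes7 and Psen2 had 1 each. CACGTG was found in 3 windows (8.33%), those of Psen2, Adam10 and Lfng. This lay between the 7.15% of all promoters and the 9.42% of those of linked coding genes. Such matches describe letters in a window and name no bound site.

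Across the set, 34 of 36 genes (94.4%) had a linked peak, against 55.4% of 21900 protein-coding genes. An above-median peak was found for 27 of the 36 (75%), against 35.4% of coding genes, and an upper-quartile peak for 18 (50%), against 19.2%. The genes also carried more peaks each, 2 per gene against 0.819 over all coding genes. At least 2 peaks were linked to 20 of the 36 genes (55.6%), against 15.5%, and at least 3 to 12 (33.3%), against 5.62%. These shares are a description of 1 list, and the genes were chosen with earlier results of the same data known.

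**Figure D1:**
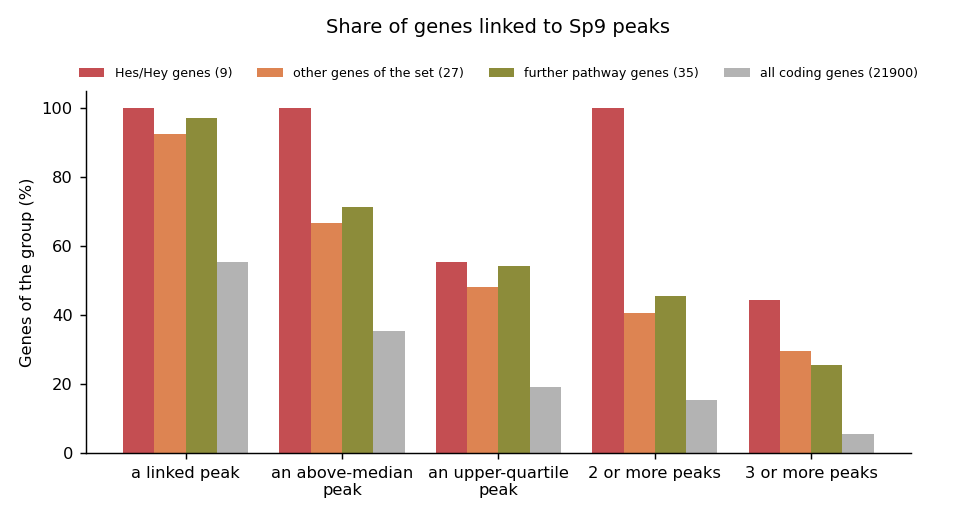
Share of genes (%, vertical axis) with a linked peak, an above-median peak, an upper-quartile peak, and 2 or more or 3 or more linked peaks. Bars stand for the 9 Hes/Hey genes, the other 27 genes of the set, 35 further pathway genes and all 21900 coding genes, from left to right; the Hes/Hey bars reach 100% for a linked peak, an above-median peak and 2 or more peaks.

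The abundance of peaks came with a wide range of scores. The 72 peaks scored from 82.1 to 894.36 with a median of 184, below the 210.06 of all peaks. Merging peaks of the same gene within 1000 bp moved this median to 234.99, above the 210.06 of the unmerged list, so the order is not firm. Of the 72 peaks, 38 were further peaks beside a gene's highest one. Those 38 had a median of 119, against 135 for the further peaks of all coding genes. The highest peaks of the 34 genes had a median of 360, against 273 for the highest peaks of all linked coding genes, and 27 of the 34 (79.4%) were above the median of the list, against 64.0% of linked coding genes. Just above that cut lay Hes2 with 216.1, and the nearest gene whose highest peak fell below it was Notch3 with 150.34. The set did not reach the top of the list: its highest peak, that of Adam10, ranked 360 among all peaks.

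**Figure D2:**
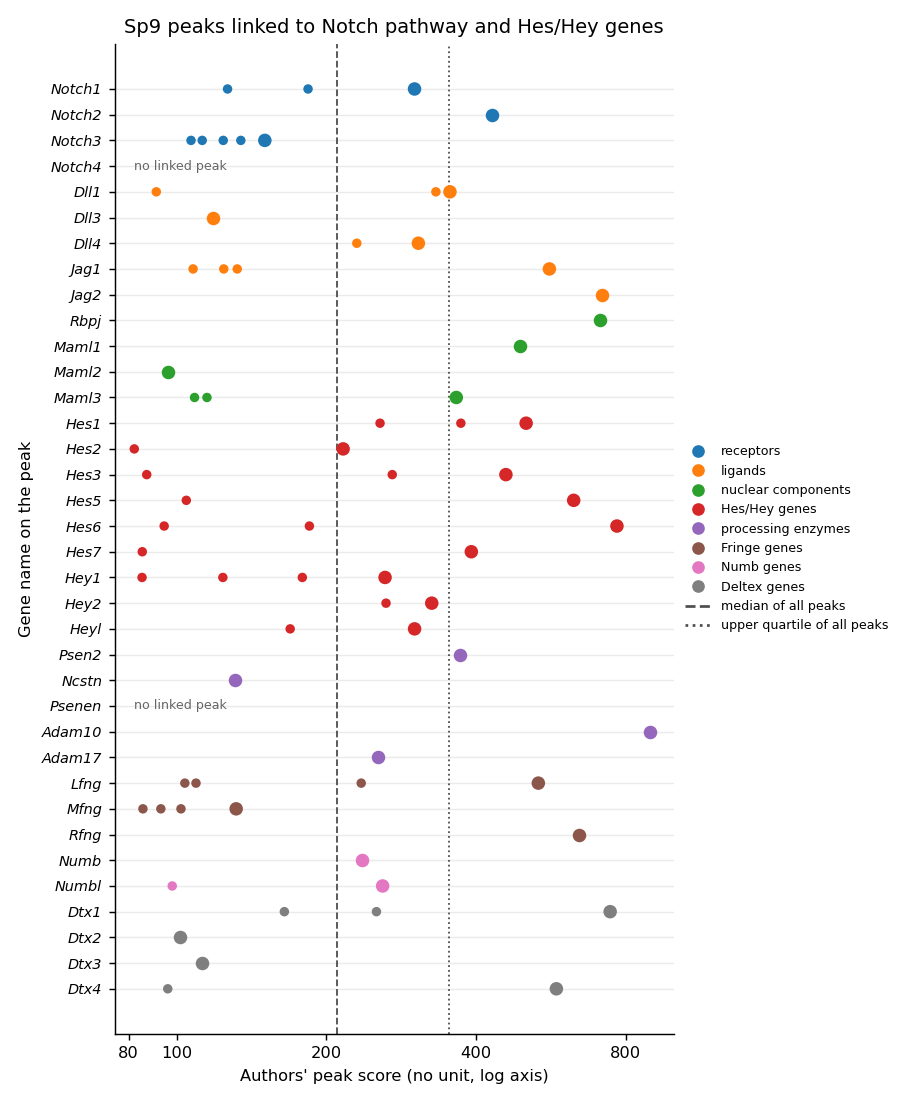
Authors' score (no unit, log axis) of each of the 72 peaks, 1 row per gene, coloured by role; large points are each gene's highest peak and small points its further peaks. The dashed and dotted lines are the median (210.06) and upper quartile (354) of all peaks; Notch4 and Psenen have no point, and Adam10 lies farthest right at 894.36.

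Among the receptors, Notch1, Notch2 and Notch3 were linked and Notch4, the receptor best known from endothelial cells, was not. Notch2 had 1 peak with a score of 430.15 on chromosome 3 from 97817062 to 97818265, above 82.9% of all peaks. Notch1, the receptor of neural stem cells studied most, had 3 peaks with scores of 300.84, 183.67 and 126.49. The first of these lay on chromosome 2 from 26358560 to 26359698, and the next ended 272 bp before it. Notch3, best known from the smooth muscle of vessels and also active in neural stem cells, had the most peaks of the set, 5 within 26.1 kb of chromosome 17, but all scored between 106.79 and 150.34. The receptors thus held 9 peaks of which 2 were above the median. Many peaks and a high score did not go together here: the receptor with 1 peak had the highest score and the receptor with 5 the lowest.

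All 5 ligand genes were linked, against 55.4% of all coding genes, and they held 11 peaks. Jag2 led with 1 peak of 716.82 and 2030 bp on chromosome 12 from 114166424 to 114168454, above 95.9% of all peaks. Jag1 had 4 peaks, the highest of 561.99 on chromosome 2 from 136942093 to 136943714 and the others at 132.3, 124.29 and 107.82. Peaks of 132.3 and 107.82 lay far from the first, so that the 4 spanned 256 kb. The highest peak of each Jagged gene thus scored above that of each Delta gene. Dll1, the main Delta ligand of neural progenitors, had neighbouring peaks of 354.5 and 332.13 that were 123 bp apart on chromosome 17, and another of 90.92. Dll4, known for its role in vessel sprouting, had peaks of 306.26 and 230.22. Dll3, which does not activate receptors on other cells and acts within its own cell, had 1 peak of 118.17 on chromosome 7 from 29083531 to 29084281. A peak of 397.51 named BC089491 lay 3109 bp from it. A weak peak named Gm14207 (109.28) lay 5408 bp from the nearer Dll4 peak.

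The nuclear components were linked without exception, against 55.4% of all coding genes, but not to the same degree. Rbpj, the DNA-binding partner of every Notch receptor, had 1 peak of 711 on chromosome 5 from 53979965 to 53982607, which at 2642 bp was the widest of the set. Of the Mastermind co-activators, Maml1 had 1 peak of 490.99 and Maml3 3 peaks of 365.1, 114.98 and 108.55. Maml2 had 1 peak of 96.05, above only 9.91% of all peaks and the lowest value when each gene is represented by its highest peak. Upper-quartile peaks thus belonged to Rbpj, Maml1 and Maml3 and not to Maml2.

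The 9 Hes and Hey genes had a linked peak each, an above-median peak each and at least 2 peaks each. The shares over all coding genes were 55.4%, 35.4% and 15.5%. The 4 Groucho co-repressor genes, among the further pathway genes described below, matched the Hes and Hey genes in each of these. Together the Hes and Hey genes held 23 peaks, or 2.56 per gene, against 1.81 for the other 27 genes of the set and 0.819 over all coding genes. At least 2 peaks were found for 9 of 9 Hes/Hey genes and for 11 of the other 27 (40.7%), against 15.5% of coding genes. Their highest peaks ran from 216.1 in Hes2 to 768.57 in Hes6. Upper-quartile peaks were linked to 5 of the 9 (55.6%), and to 13 of the other 27 (48.1%), against 19.2% of coding genes.

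Hes6, which opposes Hes1 and promotes neuronal differentiation, had the highest score of the family, 768.57 on chromosome 1 from 93308662 to 93310179. Its other peaks had 184.83 and 94.29, and the first of these began 265 bp beyond the main peak. Hes5, a direct Notch target in neural progenitors, had 628.96 on chromosome 4 from 154334326 to 154336311 and a weaker peak of 104.48, a ratio of 6.02. Its main peak was 1764 bp from a peak of 247.9 named Pank4. Hes1, the other main Notch effector of neural stem cells, differed from both in that all 3 of its peaks were above the median. They scored 504.59, 372.9 and 256.42 within 7.98 kb of chromosome 16, the first from 30063105 to 30064936. The nearest peak with another name lay 53356 bp away.

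Hes3, active in neural progenitors, had peaks of 459.45, 271.33 and 86.97 within 8.78 kb of chromosome 4. Peaks named Gpr153 (149.62) and Icmt (428.12) lay 1929 bp and 5628 bp from the nearest of these. Hes7, known for the segmentation clock of the embryo, had a peak of 391.4 and another of 85.2 on chromosome 11. Hes2 had the lowest highest score of the family, 216.1, with a peak of 82.1 only 66 bp away. It lies 122 kb from the nearest Hes3 peak, with 3 peaks of 2 other names between them. The peak of 376.85 named Espn was 5838 bp from the nearer Hes2 peak.

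The Hey genes, known above all from heart and vessels, had lower highest scores than Hes1, Hes5 and Hes6. Hey2 had 325.82 and 263.62 on chromosome 10, at sites 211415 bp apart. Heyl had 300.91 and 169.08 within 6.83 kb of chromosome 4. Hey1 had 4 peaks, the most of the family, of 262.44, 178.87, 123.77 and 85.11 over 122 kb of chromosome 3. None of the 3 Hey genes had an upper-quartile peak, whereas 5 of the 6 Hes genes did.

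**Figure D3:**
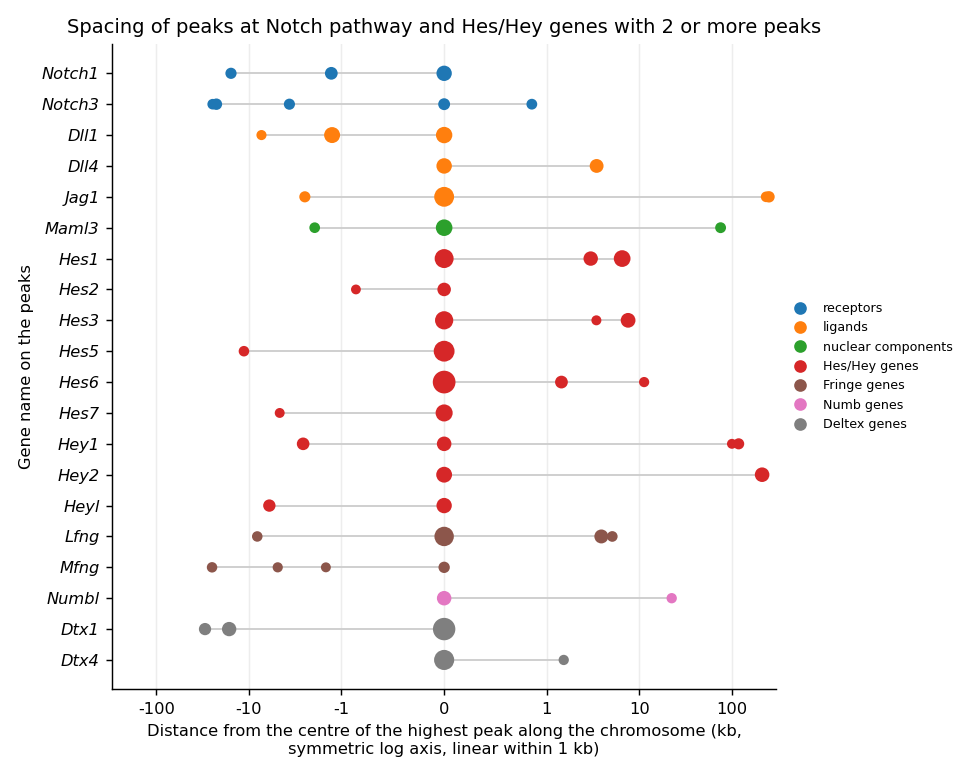
Distance (kb, symmetric log axis, linear within 1 kb) of each peak's centre from the centre of the same gene's highest peak, along the chromosome, for the 20 genes with 2 or more peaks; point area grows with score. The peaks of Jag1, Hey1 and Hey2 span over 100 kb, those of Hes1 7.98 kb.

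Some peaks of the same gene lay close together. Of the 20 genes with at least 2 peaks, 9 held a pair of peaks no more than 1000 bp apart. The share was 16.5% of all coding genes with at least 2 peaks. More peaks give more chances of a close pair, and 12 of the 20 genes had at least 3 peaks. Among the coding genes it was 1231 of 3387, so the shares are not matched for peak number. The closest pairs were those of Hes2 at 66 bp, Notch3 at 102 bp, Lfng at 117 bp and Dll1 at 123 bp. These gaps are shorter than the sheared fragments, which measured from 200 to 1000 bp. Peaks spread over more than 100 kb were found for 3 of the 20, Jag1, Hey1 and Hey2, against 28.6% of coding genes with at least 2 peaks on 1 chromosome. In 10 of the 20 the highest score was at least 2 times the next, against 42.8%.

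The 5 genes of the set for proteases and gamma-secretase subunits had at most 1 peak each. At least 2 linked peaks were found for 15.5% of all coding genes, so at most 1 peak was the usual state. Each Hes/Hey gene had at least 2. Adam10, the protease that makes the first cut in ligand-bound receptors, had the highest score of the set, 894.36 on chromosome 9 from 70526322 to 70527928, above 98.2% of all peaks. Adam17, a related sheddase, had 253.88. Among the gamma-secretase subunits, the catalytic subunit Psen2 had 371.01 and nicastrin (Ncstn) 131, a narrow peak of 568 bp. Psenen, the small subunit needed for the enzyme to mature, had no linked peak. By gene order in the GRCm38.p6 table, the 3 coding genes on each side of Psenen held 1 linked peak, that of Kmt2b with 185.16, while Proser3, Hspb6, Lin37, U2af1l4 and Igflr1 had none. Of the 3 on each side of Notch4, Gpsm3 had 2 peaks, the higher of 422.05, BC051142 had 1 of 138.06 and Pbx2 1 of 130.23, while Btnl4, Btnl6 and Ager had none. These neighbours were looked up only once the values were known.

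The genes that modify receptors or signals were linked in 9 of 9 cases, against 55.4% of all coding genes. Their highest scores differed more within the Fringe and Deltex families than between Numb and Numbl. Of the Fringe genes, which add a sugar to the receptor and so change its response to ligands, Rfng had 1 peak of 644.47 and Lfng 4 peaks of 533.93, 234.99, 109.28 and 103.78. Mfng also had 4 peaks, but none over 131.64, and the lowest was 85.46. Lfng, a known Notch target in the embryo, and Mfng therefore had equal numbers of peaks with clearly different scores, and all Mfng peaks lay below the median of the list.

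Numb and Numbl, membrane-associated adaptors that restrain Notch, had highest scores of 235.3 and 259.5, both above the median and below the upper quartile. Of the Deltex genes, which encode ubiquitin ligases of the Notch pathway, Dtx1 had 3 peaks of 744.82, 252.19 and 164.58, the first on chromosome 5 from 121160029 to 121162079. A peak of 134.52 named Rasal1 lay 5082 bp from the weakest of them. Dtx4 had 580.5 and 95.88. Dtx2 with 101.68 and Dtx3 with 112.46 had 1 peak each, both below the median. A stronger peak of 361.07 named Arhgef25 was 5548 bp from that of Dtx3.

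**Figure D4:**
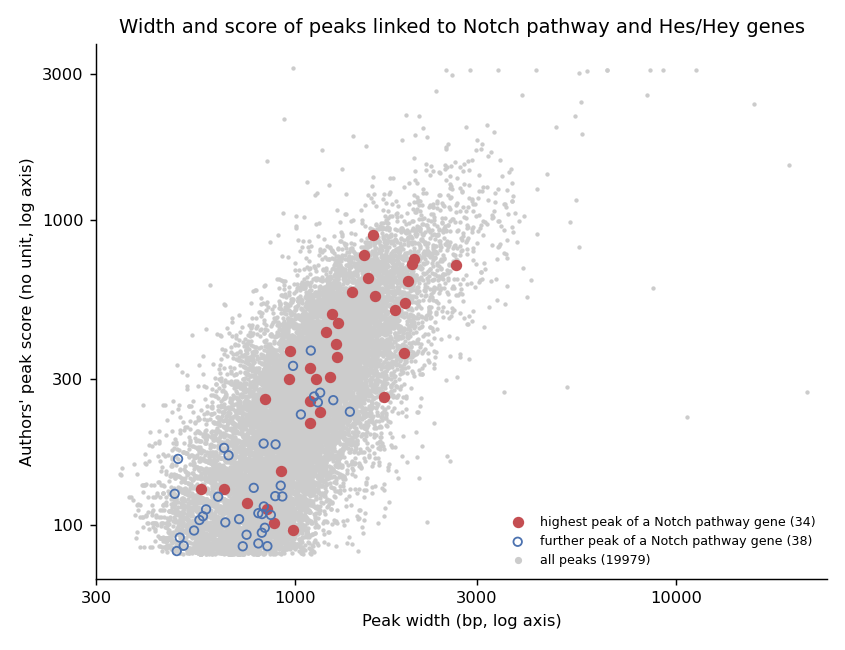
Peak width (bp, log axis) against the authors' score (no unit, log axis) for the highest peak of each of the 34 linked genes, their 38 further peaks and all 19979 peaks of the list. The highest peaks have a median width of 1242 bp and the further peaks one of 810 bp.

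Wider peaks had higher scores in the set as in the whole list. The Spearman correlation between width and score was 0.837 over the 72 peaks and 0.745 over all 19979, which come from the same deposited list. Highest peaks had a median width of 1242 bp and further peaks 810 bp, against 1076 and 843 bp for coding genes in general. The widest peaks were those of Rbpj (2642 bp), Dtx1 (2050 bp) and Jag2 (2030 bp).

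Other genes of the pathway were linked about as often. Of 35 further genes for partners, regulators and co-factors, 34 (97.1%) had a linked peak, against 55.4% of coding genes, 25 (71.4%) an above-median peak, against 35.4%, and 19 (54.3%) an upper-quartile peak, against 19.2%. They held 61 peaks, 1.74 per gene. The highest were Cntn1, a contactin reported as a Notch ligand for oligodendrocyte precursors (1568.2, above 99.8% of all peaks), Tle1 and Tle3, Groucho co-repressors that Hes proteins recruit (991.13 and 799.21), Ctbp2, a co-repressor (842.8), Fbxw7, the ubiquitin ligase that ends the life of the receptor's intracellular part (740.71), and Spen, a co-repressor of Rbpj (669.27). Pofut1, which adds the fucose that Fringe enzymes extend, had none.

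Each of the 4 Groucho genes had 3 peaks, where 5.62% of all coding genes had at least 3. The highest scores of Tle4 and Tle2 were 555.08 and 226.63. The feedback inhibitor Nrarp, a Notch target, had 577.15 and 241.54. The ligases that ubiquitinate Delta and Jagged showed 594.27 for Mib1 and 144.33 for Mib2, and 598.51 for Neurl1b and 492.86 for Neurl1a. The remaining gamma-secretase genes Aph1a, Aph1b and Aph1c had highest scores of 147.84, 411.91 and 159.28. Nrarp, Tle2, Tle4 and these ligase and secretase genes were chosen with their values known.

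Peaks give no measure of which cells the chromatin came from. Among markers, all 5 of neuroblasts and interneurons, 2 of 2 of progenitors and 3 of 3 of mitral and tufted cells had a linked peak. The counts were 1 of 3 for astrocytes and ensheathing glia, 2 of 3 for endothelium and 1 of 3 for microglia, and the share over all coding genes was 55.4%. In the same order, 4, 2, 3, 0, 1 and 0 of these markers had an above-median peak, a share of 35.4% over all coding genes. With 2 to 5 markers a group, such counts resolve no difference from these shares. The part of cell mixture in the values above was not tested.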

How the data were processed

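Sp9 chromatin immunoprecipitation (2 libraries) and input (1 library) from neonatal mouse olfactory bulb were sequenced as paired ends of 150 bases, per the labels' protocols. The submitters' processing notes list Bowtie2 2.2.4, MACS 1.4.2 and the build mm9, with neither roles nor settings. The single deposited list holds positions (start and end), 1 gene name and 1 peak score per shared peak; the deposited score is the authors', and the sources used here give neither its formula nor the sharing rule nor the annotation. Library depth is unknown, so no interval for a peak can be given.

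Peaks were assigned by equal gene name; all 36 symbols were in the RefSeq gene table (GRCm38.p6), and the peaks of the 34 linked genes lay on the chromosome that table gives. For the coding background, names matched by symbol or by a synonym of only 1 gene; 50 of 13383 names did not match. Counts were made with Python 3.11.15 and pandas 2.3.3 and checked on a simulated list. The genes, roles and lists were chosen with earlier results of these data known. All 36 genes are named, as are the 6 highest and every unlinked gene of the further list, and other names only within 10000 bp of a peak of the set; exceptions are stated. An item of the further list and of the markers is not reported here and is left out of their counts. Alternatives were score filters, synonyms, merging peaks within 1000 bp, leaving out unplaced sequences or dense runs (at least 5 peaks less than 10000 bp apart), and a shorter promoter window. Gene lengths and peak distances to genes were not analysed here, because no mm9 annotation was used.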

Additional observations from a re-analysis of the deposited data

How the results depend on the processing

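Of 82 alternative values, 67 stayed within 1.5 times the reported count, or within the 95% binomial interval of the median score (131 to 259.5). That interval treats peaks as independent, though many share a gene, so it served only as a cut-off and is no replicate error. Of the 67 values, the 26 under synonyms or without unplaced sequences could not move. No gene of either list was listed under a synonym or on unplaced sequence. The above-median count of 27 is likewise fixed under the filter at the median. Merging close peaks keeps each gene's name and highest score, so the counts of linked and above-median genes could not move under it. It left 63 peaks with a median score of 234.99, above the 210.06 of the unmerged list, whereas the unmerged 184 lay below it. Leaving out dense runs moved none of the counts by more than 1.5 times. With above-median peaks only, 35 peaks were left with a median score of 365.1, and 2 of the 4 Deltex genes were linked. With upper-quartile peaks only, 18 of 36 genes were linked to 19 peaks with a median score of 533.93, as were 19 of the 35 further pathway genes. By role the 18 were 1 receptor, 3 ligands, 3 nuclear components, 5 Hes/Hey genes, 2 processing enzymes, 2 Fringe genes, 0 Numb genes and 2 Deltex genes. A filter on score leaves fewer peaks by construction. In the 100 bases before the start only, CGTGGGAA was found in 0 of 36 windows, and GTGGGAA in its place (added after the data had been seen) in 5 of the whole windows. Leaving out a library was not run, because the list holds no value per library. No paired analysis was possible because the list holds 1 score per peak and the input has 1 library. The unknown depth limits the statement that Notch4, Psenen and Pofut1 had no peak.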

Other observations

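Over all coding genes, letters of the GC box were more frequent in promoters of linked genes. GGGCGG was found in 61.7% of 12235 promoter windows of coding genes with a linked peak and in 25.2% of 9028 windows of coding genes without one; the median GC content of these windows was 61.7% and 50%. GTGGGAA showed no such split, with 5.93% of windows of linked and 6.26% of windows of unlinked coding genes. The part of GC content in these shares was not tested.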
